A study of Pilatotrama ljubarskyi with 14 samples.

Results

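Among the 878 genes of the deposited table for the white-rot fungus Trametes ljubarskyi, 71 genes (8.09%) had a higher mean level on each of 4 solid substrates than on maltose, with no strong preference for 1 substrate at the top. They were chosen from the authors' 5 mean log2 columns by a fixed rule. The lowest of cellulose, wheat straw, aspen and pine lay at least 1 above maltose, which is a doubling or more. The lowest plant material lay less than 1 above cellulose, cellulose lay less than 1 above the highest other value, and no plant material exceeded all other columns by 0.4 or more. At least 1 of the 5 values was 4 or more, a condition that removed no gene. Since these means chose the genes, the rises over maltose are described here and not tested, and the differences between solid substrates, which the rule limits in part, are described in the same way.

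All cultures were mycelium of strain BRFM1659, a pure culture, shaken for 3 days. The solid-substrate groups held 15 g/l of Avicel, a microcrystalline cellulose (3 libraries), ground wheat straw (3 libraries), milled aspen wood (3 libraries) or ground pine wood (2 libraries). These media also held maltose, which the labels give as 2.5 g/l except on aspen, where the amount could not be read. The comparison group grew on maltose at 20 g/l with no solid named (3 libraries), so the effect of a solid cannot be told apart from that of less dissolved maltose. Whether the libraries of 1 substrate were grown as separate cultures is not in the labels, and the spread between them may be technical. In RNA of whole mycelium, a change in the share of 1 kind of hyphae and a change in RNA per hypha cannot be told apart either.

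White-rot fungi break down the cellulose, hemicellulose and lignin of plant cell walls with secreted enzymes. In many such fungi, genes for these enzymes are kept low while an easily used sugar is plentiful, and are raised by soluble sugars released from the wall polymers or when soluble sugar runs short. Cellulose, wheat straw, a hardwood and a softwood differ in their hemicelluloses and lignin, and pure Avicel has almost none of either. The deposited table gives gene numbers of the strain's JGI annotation and does not pair them with names or functions, so the genes are named by number and no role is given to any of them.

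The table holds 1 mean per substrate. Whole reads of the single libraries were recovered from the digits of these means for 304 of the 355 member values (51 of 71 genes on cellulose, 55 on wheat straw, 57 on aspen, 71 on pine and 70 on maltose). Within each substrate the libraries are lettered A, B and C in order of increasing scaling factor, a letter that has no known link to a replicate number. Relative depth ran from 0.646 to 1.30, while total depth is unknown. Normalized reads below are reads times the factor of the library, and levels are log2(normalized reads + 1). Where reads were not recovered, mostly at high levels, the standard error (SE) of a difference rests on the other substrates. All 71 genes passed the filter on low values used for the fit over the whole table. Over the 867 genes tested, the median difference from maltose was 0.09 on cellulose, 0.16 on wheat straw, 0.09 on aspen and 0.33 on pine. Of the 71 genes, 68, 67, 67 and 66 lay at least 1 above that median on cellulose, wheat straw, aspen and pine. The rule already put every gene at least 1 above maltose, which makes these counts high in advance. Nothing is read from them.

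The genes rose by very different amounts. The median level of the 71 genes was 11.31 on cellulose, 11.03 on wheat straw, 10.73 on aspen and 10.72 on pine, against 7.59 on maltose. Over all 878 genes the medians were 9.35, 9.36, 9.15 and 9.31 on the same solid substrates, against 8.87 on maltose. The mean rise of a gene, its mean over the 4 solid substrates minus its maltose mean, had a median of 2.93 (7.60-fold on this scale) and ran from 1.05 to 8.90. It was at least 4 in 23 genes, at least 5 in 10 and under 2 in 21. By substrate, the median difference from maltose was 3.11 on cellulose, 3.21 on wheat straw, 2.47 on aspen and 2.95 on pine.

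**Figure D1:**
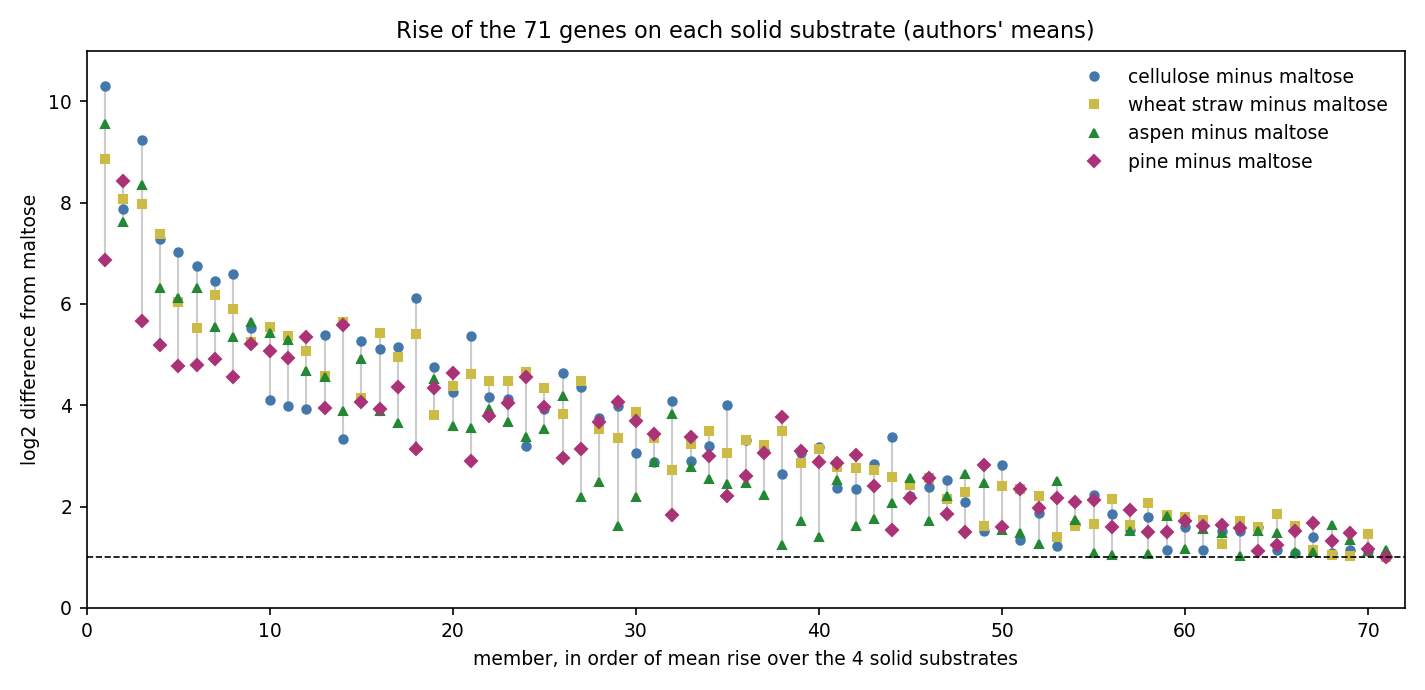
Log2 difference from maltose (y axis) on each of the 4 solid substrates for the 71 genes, ordered along the x axis by mean rise; symbols are differences of the authors' means, grey lines span the 4 substrates and the dashed line is the rule's threshold of 1. The pine symbol is the lowest in 8 of the first 10 genes, and the symbols draw together toward the right, where the rise leaves little room above the threshold.

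As shares of the table's normalized reads, computed from the means, the 71 genes held 9.05% on cellulose, 13.2% on wheat straw, 11.9% on aspen and 12% on pine, against 1.46% on maltose. Gene 1054011 alone held 1.64%, 2.48%, 2.46% and 3.20% on these solid substrates in the same order, against 0.013% on maltose. Without gene 1054011 the shares were 7.42%, 10.8%, 9.44% and 8.81% on the solid substrates, against 1.45% on maltose. All 71 genes together were 8.09% of the table's genes. The rule chose genes higher on the solid substrates than on maltose, so nothing is read from these shares.

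Gene 971189 had the largest mean rise, 8.90 (478-fold on this scale). Its normalized reads were 2858, 3933 and 7391 in the cellulose libraries, 1591, 1649 and 1560 on wheat straw, 2115, 2513 and 3259 on aspen and 412 and 392 on pine, against 2.77, 1.01 and 4.34 on maltose. The lowest solid-substrate library was a pine library, still far above every maltose library. On maltose it had so few reads that the 1 added inside the logarithm makes the fold smaller than the ratio of reads.

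Gene 1054011 came next in rise, 8.0 (256-fold), and had the highest mean level on the solid substrates. Its means were 16.10 on cellulose, 16.31 on wheat straw, 15.84 on aspen and 16.64 on pine, against 8.22 on maltose. Recovered normalized reads were 106290 and 98634 on pine, against 299, 341 and 260 on maltose. It combined a very large rise with a narrow range of 0.80 over the solid substrates.

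At the other end, gene 1118804 had a mean rise of 1.05 (2.06-fold). Its normalized reads were 2575, 2754 and 2299 on cellulose, 2755, 2005 and 2941 on wheat straw, 2517, 3356 and 2603 on aspen and 2606 and 2476 on pine, against 1454, 898 and 1527 on maltose. The solid-substrate means differed by at most 0.15, the narrowest range of all members, and all 11 solid-substrate libraries lay above all 3 maltose libraries. Without maltose library B, though, its lowest rise was 0.77, and it no longer met the rule.

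Gene 970245 had the next smallest mean rise, 1.22, and here the libraries did not separate. It had between 2938 and 4518 normalized reads in the 11 solid-substrate libraries, against 776, 4677 and 1122 on maltose. Maltose library B was higher than every solid-substrate library, and the other maltose libraries were lower than all of them. Without library B the mean rise was 2.00. This was the only member that was not called on every solid substrate, since its pine minus maltose difference of 1.16 ± 0.52 (SE) missed the call.

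The lowest levels on the solid substrates belonged to genes 918033 and 966233. Gene 918033 had 34.8, 32.6 and 26.0 normalized reads on cellulose, 32.7, 44.8 and 30.2 on wheat straw, 16.9, 27.0 and 22.2 on aspen and 44.1 and 23.2 on pine, against 10.2, 6.05 and 16.3 on maltose. Every solid-substrate library lay above the highest maltose library, but the aspen minimum of 16.9 exceeded the maltose maximum of 16.3 by little. Gene 966233 had 81.4, 66.9 and 14.5 on cellulose, 37.2, 55.3 and 39.4 on wheat straw, 26.1, 36.4 and 13.5 on aspen and 23.1 and 29.4 on pine, against 0.925, 5.04 and 6.51 on maltose. Its libraries did not overlap with maltose either, although its cellulose and aspen libraries scattered widely.

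A gene was called where the limma adjusted p over all 867 genes was under 0.05 and the log2 difference at least 1. Called higher than maltose were 71 of 71 genes on cellulose (26% of all tested genes), 71 on wheat straw (28.3%), 71 on aspen (23.3%) and 70 on pine (29.5%). In all 4 comparisons together 70 genes were called, against 15.8% of the table. The rule used these contrasts, and nothing is read from the counts. The 4 comparisons share the maltose libraries, and without maltose library B 61 of the 70 genes that could be tried were called in all 4. The share of all genes called in that fit is not given, so nothing is read from this count either. Of the 47 genes recovered in every library, 44 had all 11 solid-substrate libraries above all 3 maltose libraries (20.2% of the tested genes recovered in every library did), with a median gap of 1.21 on the log2 scale over the 47 and a largest gap of 6.20 in gene 971189.

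The 3 genes whose libraries overlapped were 970245, 550701 and 1056470. Gene 550701 had levels of 5.24, 5.15 and 4.34 in the aspen libraries, against 4.14, 3.01 and 4.36 on maltose, so that aspen library C lay just under maltose library C. Gene 1056470 had levels of 7.49, 7.36 and 5.31 in the cellulose libraries, against 5.35, 5.14 and 5.51 on maltose. In gene 1056470 cellulose libraries A and B were high and library C was at the maltose level.

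The working label of these genes, raised alike, held for less than their full number. The range of a gene, its highest minus its lowest solid-substrate mean, was at most 1 in 33 of 71 genes (46.5%), between 1 and 2 in 26 and above 2 in 12. In the 863 genes of the table with a value of at least 4, the range was at most 1 in 42.9% and above 2 in 21.6%. The median range was 1.12 (2.17-fold) in the 71 genes and 1.13 in the table. The rule caps the highest value but not the distance of the lowest one, so the 71 genes shared a rise on all solid substrates without having an even level across them. By range, they are near the background of the table.

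**Figure D2:**
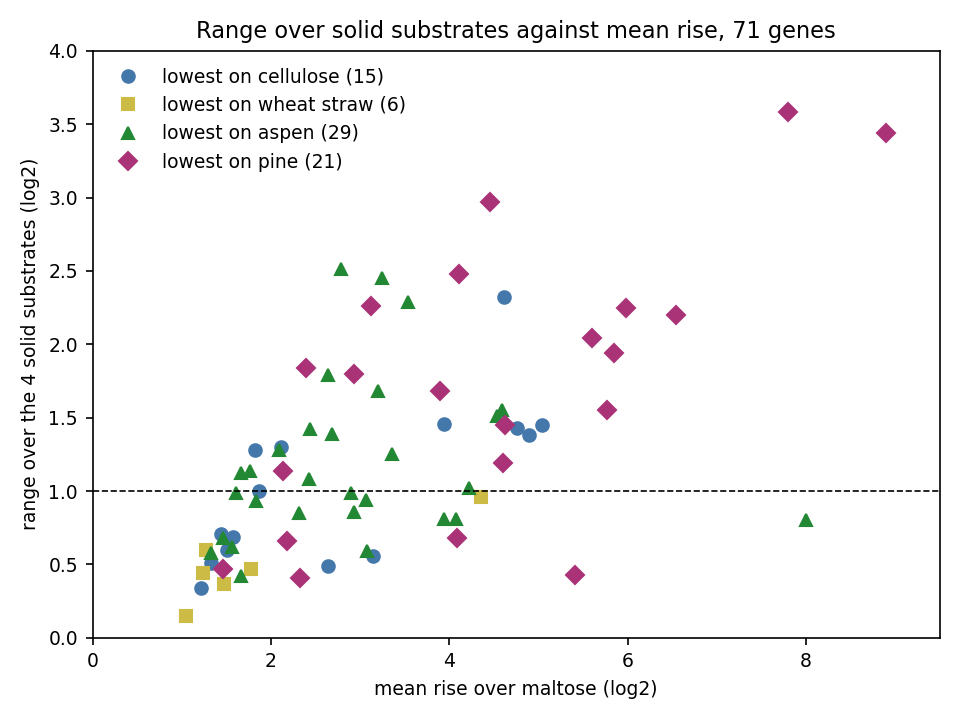
Range over the 4 solid substrates (y axis, log2) against mean rise over maltose (x axis, log2) for the 71 genes; symbol and colour give the substrate with the lowest of the 4 means, the legend counts them, and the dashed line marks a range of 1. Genes with mean rises above 5 and ranges above 1.5 are all lowest on pine, and genes 1054011 (mean rise 8.0, range 0.80) and 1068867 (5.41, 0.43) lie low on the right.

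Larger rises came with wider ranges. The 36 genes with the larger mean rises (2.93 to 8.90) had a median range of 1.48, and 10 of them had a range of at most 1. The 35 genes with the smaller rises (1.05 to 2.90) had a median range of 0.71, and 23 of them had a range of at most 1. Across the 71 genes, which share libraries and scaling, Pearson's r between mean rise and range was 0.63. Part of this is built into the choice, because a gene with a small mean rise cannot fall far on any solid substrate without leaving the rule.

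Gene 1068867 was an exception among the large rises, and was chosen for mention after its values were seen. It had 6897, 7343 and 7583 normalized reads in the wheat straw libraries and 6921 and 7299 in the pine libraries, against 207, 169 and 199 on maltose. Its means on cellulose and aspen were 13.12 and 13.23, and its range of 0.43 (1.35-fold) was small beside its 42.4-fold mean rise.

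The solid substrate with the lowest mean was aspen in 29 genes (40.8%; 38.9% of all tested genes), pine in 21 (29.6%; 20.9%), cellulose in 15 (21.1%; 25.8%) and wheat straw in 6 (8.45%; 14.4%). The highest mean was on wheat straw in 25 (35.2%; 17.4% of the 863 genes with a value of at least 4), cellulose in 23 (32.4%; 31.1%), pine in 17 (23.9%; 32.4%) and aspen in 6 (8.45%; 19.1%). The rule bars a plant material from standing far above the rest, and so bears on which substrate is highest.

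The 21 genes lowest on pine included 8 of the 10 largest rises. Their median mean rise was 4.46, against 2.78, 2.11 and 1.37 for those lowest on aspen, cellulose and wheat straw. In 16 of the 21 the highest mean was on cellulose. The pine mean minus the mean of the other 3 solid substrates had a median of -1.16 (2.23-fold lower), and pine lay at least 1 below the others in 12 genes. Of the 21 genes, 15 were called lower on pine than on cellulose (16.8% of all tested genes), 9 lower than on wheat straw (9.8%) and 7 lower than on aspen (7.27%). The group was defined by its lowest mean, so nothing is read from these counts.

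Gene 946088 stood farthest below the others on pine, with a pine mean minus the mean of the others of -2.86, and had the widest range of all members, 3.58 (12-fold). Its normalized reads were 5927, 7289 and 6493 on wheat straw and 1383 and 1246 on pine, against 27.7, 19.2 and 29.3 on maltose. Its means on cellulose and aspen were 13.94 and 13.04, where reads were not recovered. On wheat straw, pine and maltose the libraries of a substrate were close together, and those of different substrates did not overlap. The pine minus cellulose difference was -3.58 ± 0.19 and the pine minus maltose difference 5.66 ± 0.19 (SE).

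Gene 971189, the largest riser, had the same order, with a pine minus cellulose difference of -3.44 ± 0.39 and an aspen minus pine difference of 2.69 ± 0.39 (SE). Gene 963698 had 1369, 1580 and 1779 normalized reads on cellulose, 1595, 1656 and 1801 on wheat straw, 632, 1130 and 707 on aspen and 364 and 367 on pine, against 5.55, 17.1 and 7.60 on maltose. Its levels formed steps, with cellulose and wheat straw highest, aspen between and pine lowest, and none of the libraries of these steps overlapped. Gene 1037439 had 1875, 2220 and 2045 on wheat straw, 1880, 2050 and 2613 on aspen and 769 and 955 on pine, against 35.1, 38.3 and 20.6 on maltose. Here wheat straw and aspen overlapped, and pine lay below both.

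Gene 938489 was low on pine and aspen together. It had 984, 1954 and 1725 normalized reads on cellulose, 795, 1299 and 761 on wheat straw, 179, 184 and 230 on aspen and 193 and 186 on pine, against 28.7, 20.2 and 15.2 on maltose. The wood libraries overlapped each other and lay below all cellulose and wheat straw libraries. The aspen minus cellulose difference was -2.92 ± 0.28 and the pine minus cellulose difference -2.97 ± 0.32 (SE).

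Gene 961425 had the opposite relation of the 2 woods to that of the genes lowest on aspen. It had 5156, 5935 and 6637 normalized reads on aspen, 2705, 2820 and 2668 on wheat straw and 1418 and 1531 on pine, against 462, 342 and 446 on maltose. The aspen minus wheat straw difference of 1.11 ± 0.14 (SE) was the largest positive one among the 71 genes. Its cellulose mean was 12.78, close to 12.52 on aspen.

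The 29 genes lowest on aspen had a median mean rise of 2.78 and a median aspen mean minus the mean of the other 3 of -0.82 (1.77-fold lower). The highest mean was on wheat straw in 14, pine in 9 and cellulose in 6. Called lower on aspen were 11 of the 29 against cellulose (24.5% of all tested genes), 11 against wheat straw (17.3%) and 9 against pine (16.6%), counts from which nothing is read because aspen was their lowest mean by definition. Over all 71 genes the median of aspen minus the other 3 was -0.33, against -0.24 over the 867 tested genes, which lay lower on aspen as well.

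Gene 945551 stood farthest below the others on aspen, at -2.18 relative to their mean. It had 557, 621 and 463 normalized reads on aspen, 3206, 4521 and 1507 on cellulose, 1927, 1405 and 2182 on wheat straw and 3026 and 2916 on pine, against 168, 195 and 167 on maltose. All aspen libraries lay below all other solid-substrate libraries and above all maltose libraries. The aspen minus pine difference was -2.45 ± 0.34 (SE).

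Gene 969198 had the largest aspen minus pine difference in this direction, -2.51 ± 0.21 (SE). It had 1165, 1226 and 1053 normalized reads on aspen and 6752 and 6313 on pine, against 514, 524 and 416 on maltose. On aspen it was thus 1.25 ± 0.19 (SE) above maltose, a modest rise beside the 3.76 ± 0.21 (SE) on pine. Gene 1043331 had the most negative aspen minus wheat straw difference, -2.29 ± 0.17 (SE), with 2583, 3087 and 2955 normalized reads on aspen and 4910 and 6230 on pine, against 561, 794 and 565 on maltose. Its wheat straw reads were not recovered, so no wheat straw library of this gene entered that SE.

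The 15 genes lowest on cellulose had a median mean rise of 2.11, with the highest mean on wheat straw in 9, pine in 5 and aspen in 1. Their cellulose mean minus the mean of the other 3 had a median of -0.71, and by the rule the lowest plant material stayed within 1 of it. Called higher than cellulose were 5 of the 15 on wheat straw (8.65% of all tested genes), 4 on pine (14.1%) and 3 on aspen (10%), and nothing is read from these counts either, since the group was picked for its low cellulose mean. Gene 1081257 stood farthest below on cellulose, at -1.71 relative to the mean of the others. It had 6112, 4522 and 1909 normalized reads on cellulose, 5559, 6080 and 4964 on aspen and 17486 and 18266 on pine, against 224, 965 and 238 on maltose. Its wheat straw mean was 14.19, near 14.13 on pine, so that wheat straw and pine were high and aspen and cellulose lower.

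Gene 963132, the member with the highest solid-substrate level after gene 1054011, had the same shape. Its means were 13.98 on cellulose, 15.43 on wheat straw, 14.15 on aspen and 15.35 on pine, against 10.79 on maltose. Its normalized reads were 38008 and 45807 on pine, against 1538, 2126 and 1682 on maltose. Wheat straw and pine were 1.46 ± 0.17 and 1.37 ± 0.19 (SE) above cellulose, and aspen 0.18 ± 0.17 (SE) above it. Of its own libraries, only those on pine and maltose entered these SEs.

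Gene 172359 was higher on both woods than on cellulose and wheat straw. It had 196, 176 and 150 normalized reads on aspen, 225 and 217 on pine, 81.4, 114 and 76.1 on cellulose and 106, 83.0 and 97.2 on wheat straw, against 33.3, 22.2 and 38.0 on maltose. All wood libraries lay above all cellulose and wheat straw libraries. Its pine minus wheat straw difference of 1.21 ± 0.24 (SE) was the largest positive one among the 71 genes.

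The 6 genes lowest on wheat straw all had ranges of at most 1, with a median of 0.45. Gene 934229 stood farthest below on wheat straw, at -0.74 relative to the mean of the others. It had 1049, 926 and 1147 normalized reads on wheat straw, 1575, 1737 and 1796 on aspen and 1265 and 1809 on pine, against 63.8, 72.6 and 84.6 on maltose. Wheat straw was below all aspen and pine libraries, yet its difference from cellulose, -0.96 ± 0.16 (SE), stayed under the size needed for a call. The cellulose reads of this gene were not recovered, so no cellulose library of it entered that SE. No gene of this group was called lower on wheat straw than on another solid substrate.

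**Figure D3:**
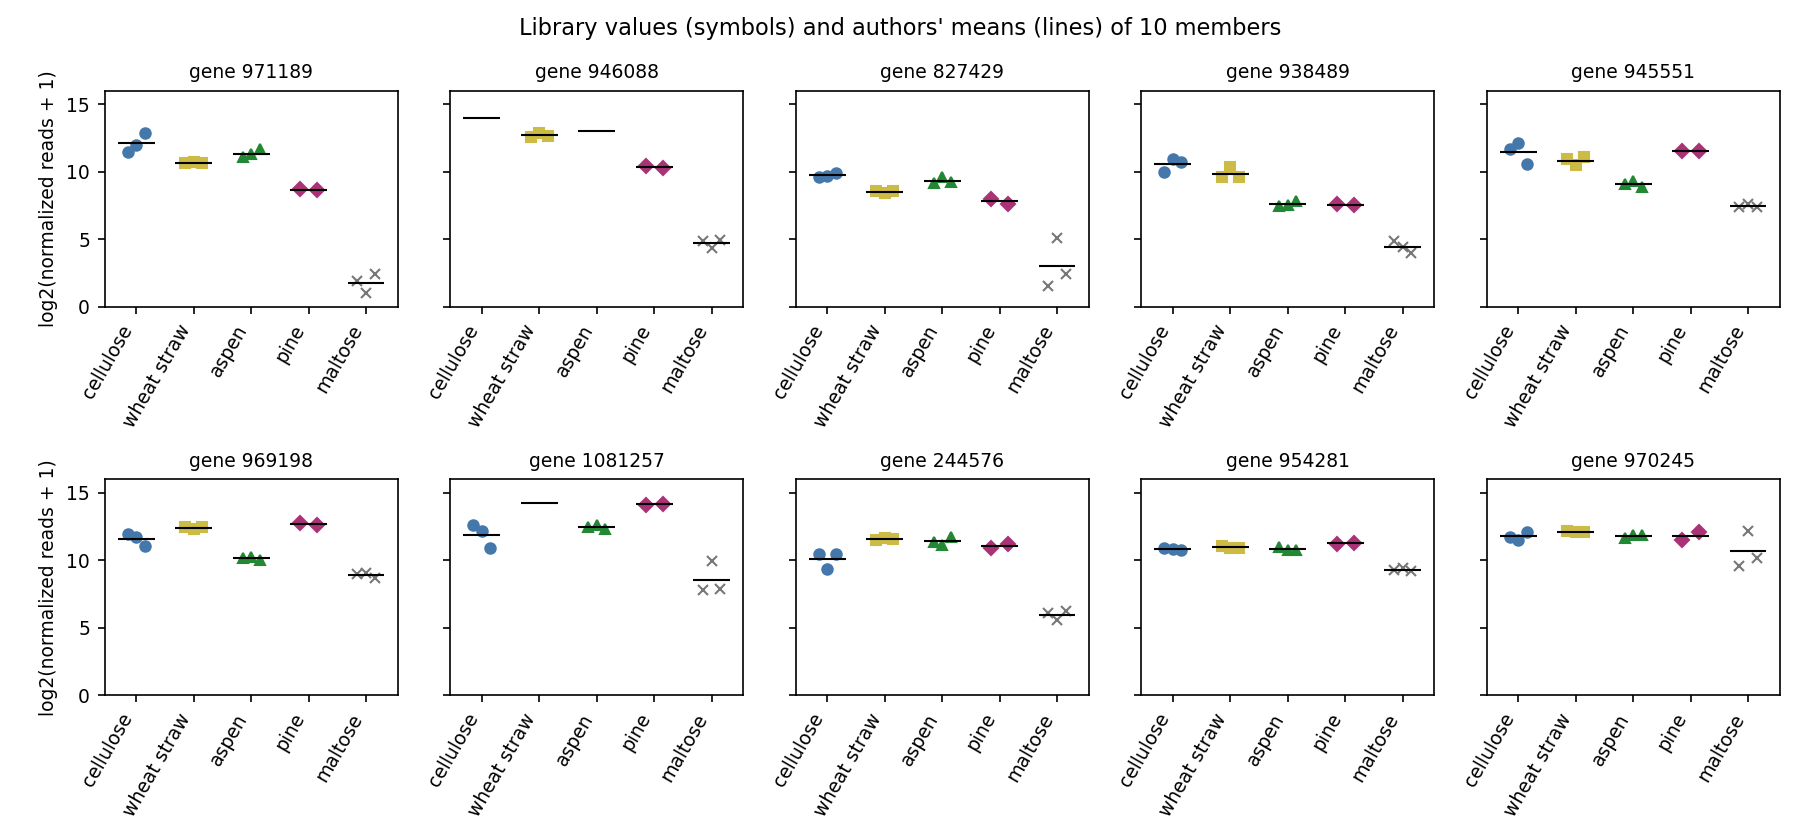
Levels, log2(normalized reads + 1) on the y axis, of 10 of the 71 genes on the 5 substrates along the x axis; symbols are libraries A, B and C from left to right where reads were recovered, and black lines the authors' means. The upper genes 971189 to 938489 are lowest on pine among the solid substrates, genes 945551 and 969198 are lowest on aspen, gene 954281 is nearly level, and maltose library B of gene 970245 reaches the solid-substrate levels.

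Counted over all 71 genes, differences between solid substrates were about as frequent as in the table. At least 1 of the 6 comparisons between solid substrates called 38 genes (53.5%; 55.8% of all tested genes), and 33 genes were called in none. Pine against cellulose called 23 genes (32.4%; 30.9% of tested genes), 5 higher (14.1% of tested genes) and 18 lower on pine (16.8%). Aspen against cellulose called 19 (26.8%; 34.5%), 3 higher (10%) and 16 lower on aspen (24.5%). Wheat straw against cellulose called 10 (14.1%; 20.6%), 5 higher (8.65%) and 5 lower on wheat straw (12%). Aspen against wheat straw called 18 (25.4%; 23.5%), 2 higher (6.23%) and 16 lower on aspen (17.3%). Pine against wheat straw called 12 (16.9%; 17.2%), 1 higher (7.38%) and 11 lower on pine (9.8%). Aspen against pine called 18 (25.4%; 23.9%), 7 higher (7.27%) and 11 lower on aspen (16.6%). These counts changed with the scaling. With each library shifted by its median, aspen against pine gave 9 higher and 6 lower on aspen. After quantile normalization over the genes recovered in every library, it gave 5 and 5 among the 47 members recovered there. In those 47 genes quantile normalization gave 4 higher and 6 lower for aspen against cellulose, 5 higher and 10 lower for pine against cellulose, and 3 higher and 6 lower for aspen against wheat straw. Shares of all tested genes under these other scalings are not given here, so nothing about the members is read from these changes. The rule limits how far the lowest plant material stands above cellulose, and any 1 plant material above all others. Cellulose had to lie less than 1 above the highest other value, which limits falls of all plant materials together. A fall of 1 plant material alone is limited only by the threshold over maltose. All tested genes, too, had more lower than higher calls in each of the 6 comparisons. The excess of lower calls on aspen and pine is thus not read as a property of these genes. By comparison pair, the median difference over the 71 genes ran from -0.51 for aspen minus wheat straw to 0.10 for wheat straw minus cellulose.

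**Figure D4:**
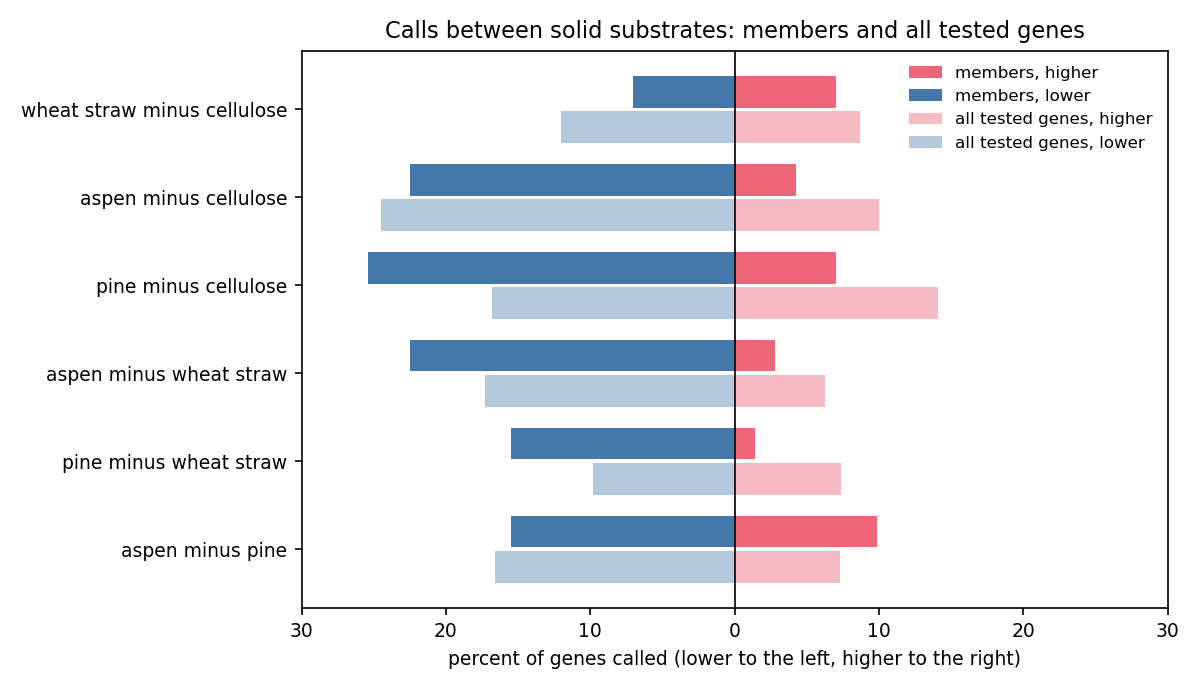
Percent of genes called (x axis; lower to the left, higher to the right) in each of the 6 comparisons between solid substrates (y axis), for the 71 genes in dark bars and all 867 tested genes in light bars. The dark bars are longer to the left in 5 comparisons and equal on both sides for wheat straw minus cellulose (7.04% each). The light bars are longer to the left in all 6 comparisons. With each library shifted by its median, aspen minus pine called 9 of the 71 genes higher and 6 lower. The share of all genes under that scaling is not given.

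Of the 36 genes with the larger mean rises 26 were called in at least 1 of the 6 comparisons, and of the 35 others 12 were (55.8% of all tested genes). Pine against cellulose called 19 of the 36 and 4 of the 35 (30.9% of all tested genes), and wheat straw against cellulose 10 and 0 (20.6%). The rule limits how far a gene with a small rise can fall on a solid substrate, and nothing is read from this split. A steady example among the smaller rises is gene 954281, which had the smallest spread between libraries, an SD of 0.09. It had 1915, 1852 and 1719 normalized reads on cellulose, 2058, 1945 and 1905 on wheat straw, 2006, 1717 and 1727 on aspen and 2365 and 2478 on pine, against 630, 680 and 587 on maltose. Pine was slightly above the others, by up to 0.42, and every solid-substrate library was above every maltose library.

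The spread between libraries was not used by the rule. The SD between libraries of a substrate, pooled over substrates, had a median of 0.27 in the 71 genes and 0.23 in the 867 tested genes. Among genes with a mean solid-substrate level of at least 8 the medians were 0.25 in 58 members and 0.19 in 579 tested genes, and under that level 0.28 in 13 members and 0.31 in 288 tested genes. By substrate, the median SD of the members was 0.30 on cellulose, 0.12 on wheat straw, 0.15 on aspen and 0.10 on pine, against 0.28 on maltose. Over all tested genes it was 0.23, 0.13, 0.13 and 0.12 on the same solid substrates, against 0.25 on maltose. The members were thus not more variable on wheat straw and pine, and pine had only 2 libraries. The largest spread was that of gene 827429, an SD of 0.89. It had 766, 830 and 964 normalized reads on cellulose, 388, 336 and 377 on wheat straw, 568, 764 and 595 on aspen and 255 and 192 on pine, against 1.85, 32.3 and 4.34 on maltose, where library B held most of the spread.

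Cellulose library C and maltose library B accounted for most of the libraries that stood apart. Cellulose library C was at least 1 (log2) below both other cellulose libraries in 8 of the 51 members recovered there and above them by that much in 0, and stood apart by that measure in 15.7% of these members and in 4.39% of 729 tested genes. The 8 members were 1039038, 1056032, 1056470, 1056628, 1081257, 479144, 945551 and 966233, named for this count and not by a prior rule. Gene 479144, for example, had 3534, 3896 and 1471 normalized reads in cellulose libraries A, B and C, and gene 1056032 had 2895, 3515 and 1414. Without library C all 8 still met the rule, and 4 of them had their highest mean on cellulose, against 0 with it. Gene 1056032, lowest on cellulose with all libraries, was then lowest on aspen.

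Maltose library B was at least 1 above both other maltose libraries in 6 of the 70 members recovered there and below them in 1, which is 10% of these members and 9.41% of 776 tested genes. Leaving it out changed the median mean rise of the 70 genes little, to 2.96, against 2.93 with it. It did move genes near the threshold. Without it 8 of the 70 no longer met the rule, with lowest rises of 0.66 to 0.98, and these were genes whose lowest rise had been at most 1.27. Among them were genes 1118804 (0.77), 918033 (0.71), 550701 (0.66) and 766367 (0.81), which are named elsewhere here.

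Genes 244576 and 244472 had the closest profiles of all 2485 pairs of members, with means that differed by at most 0.17 on any substrate; they were singled out after their values were seen. Gene 244576 had 1411, 648 and 1415 normalized reads on cellulose, 2823, 3140 and 2954 on wheat straw, 2603, 2246 and 3377 on aspen and 1949 and 2303 on pine, against 68.4, 46.4 and 76.0 on maltose. Gene 244472 had 1440, 677 and 1458 on cellulose, 2783, 3127 and 2882 on wheat straw, 2626, 2338 and 3450 on aspen and 1971 and 2401 on pine, against 80.5, 59.5 and 72.7 on maltose. They moved together library by library, including the low cellulose library B. Whether they share reads or sequence was not tested, and their values are given as uncertain for that reason. The next closest pair, 1045643 and 766367, differed by up to 0.33.

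The rule cut through a continuous spread of values. For the rise over maltose, gene 1118804 was just inside at 1.01 and gene 977104 just outside at 1.00 (under the threshold before rounding). For the lowest plant material minus cellulose, gene 244576 was just inside at 0.96 and gene 962203 just outside at 1.07. For cellulose minus the highest other, gene 390466 was inside at 0.95 and gene 487237 outside at 1.06. For a plant material above all others, gene 965813 was inside at 0.38 and gene 1035491 outside at 0.40. Gene 487237 would have had the largest mean rise, 9.0, and shows pine as its lowest solid substrate too, with means of 16.58 on cellulose, 15.48 on wheat straw, 15.52 on aspen and 13.02 on pine, against 6.15 on maltose.

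In all, 138 genes of the table lay at least 1 above maltose on all 4 solid substrates. Besides the 71 genes, 31 were left out for a cellulose value at least 1 above all others, 15 for plant materials at least 1 above cellulose, and 21 for 1 plant material at least 0.4 above all others (13 for wheat straw, 6 for pine and 2 for aspen). The 71 genes are therefore 71 of 138 genes raised on all solid substrates. The genes outside the set whose 5 means were most like the mean profile of the 71 were 1033360 (Pearson's r = 0.986 over 5 means) and 1053562 (r = 0.986). Gene 1033360 had 2026, 2241 and 1421 normalized reads on cellulose, 2543, 2374 and 2712 on wheat straw, 1385, 1958 and 1430 on aspen and 1363 and 1388 on pine, against 314, 204 and 280 on maltose, and missed the rule by a wheat straw value 0.45 above the others. Gene 1053562 rose less, with means of 5.76, 5.74, 5.53 and 5.74 on cellulose, wheat straw, aspen and pine, against 4.91 on maltose.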

How the data were processed

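PolyA RNA was sequenced in 14 libraries. The authors deposited log2 normalized read counts, 1 column per substrate, per the file headers. How columns were scaled, libraries combined and the 878 genes selected was not given in the sources used here. Per the submitters' processing notes, TopHat2, HTSeq and DESeq 1.5 were used. Groups follow the substrate that each label gives.

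From the deposited log2 means, whole reads were recovered as the mean over libraries of log2(count × factor + 1). Factors came from a search over the lowest values, and 212 of 212 values under 4 were solved. Every value up to level 13 (all in pine) was searched for whole counts within 2.5e-14, or 1e-13 from level 10, and used where exactly 1 set fitted. The tolerances were widened once, on the residuals of pine. A library could differ from the mean by 6 up to level 8 and in pine, 4 up to 10, 3 up to 11, 2 up to 12 and 1 up to 13. Of 4390 values, 3950 (90.0%) were recovered, 367 were too high, 66 had several solutions and 7 none. Values shifted on purpose gave a false single solution in 1 of 500 cases at levels up to 11 and in pine, and in 29 of 400 cases at levels between 11 and 13. Of 737 values recovered from simulated cellulose libraries 2 were wrong.

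Means are the deposited ones; recovered libraries give the spread. limma 3.58.1 (R 4.3.3) fitted 1 mean per substrate over all libraries with a mean-variance trend, for genes with a level of at least 4 in at least 2 libraries (867), with two-sided tests and Benjamini-Hochberg adjustment within each of 10 comparisons, and was tested on simulated data. Recovery used Python 3.11.15, numba and NumPy. The named genes are those with the 2 largest and 2 smallest mean rises, levels and ranges, the gene lowest on each solid substrate, those at the rule's thresholds and the 2 most similar genes outside. Genes 827429, 963698, 1037439, 938489, 961425, 969198, 1043331, 172359, 954281, 1068867, 479144, 1056032, 1056470, 550701, 244472, 1039038, 1056628, 1045643 and 766367 were added after their values were seen. The genes, groups and tests were chosen with earlier results of these data known. Gene lists by function were not run, since the gene numbers carry no names. Alternatives were other scalings, filters, added constants, a fit without trend, subsets of genes and leaving out each library.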

Additional observations from a re-analysis of the deposited data

How the results depend on the processing

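No paired analysis was possible because the columns are means and the recovered libraries carry no replicate numbers. Shifting each column by its median kept 50 of the 71 genes and gave 56 in all, quantile normalization of the columns kept 40 and gave 60, and a threshold of 1.5 over maltose kept 50; without a minimum level there were 71. Leaving out a library gave 45 to 73 genes, over only the genes recovered on that substrate, and the lowest numbers were without cellulose library A (46) and B (45), where 51 of the 71 could be tried. The range over solid substrates was at most 0.5 in 10 genes and at most 2 in 59. The median difference from maltose became 2.64 on cellulose, 2.72 on wheat straw, 2.19 on aspen and 2.52 on pine after the median shift, and 2.41, 2.69 and 2.49 on cellulose, wheat straw and pine after quantile normalization. Quantile normalization also turned the median aspen minus cellulose difference to 0.03 and the aspen minus wheat straw difference to -0.02, so that the lower median on aspen depends on the scaling. Relative to their mean, the column medians over all genes were 0.14 on cellulose, 0.15 on wheat straw, -0.06 on aspen and 0.10 on pine, against -0.33 on maltose, the amounts the median shift removes. The cause of the other changes was not tested.

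Counts of calls were smaller where fewer genes were tested. Counts of members called against maltose were also smaller with quantile normalization over the same 47 members. For cellulose minus maltose, so was the count over all genes. With the 47 members recovered in every library, 47, 47, 47 and 46 were called higher than maltose on cellulose, wheat straw, aspen and pine and 46 on all, and after quantile normalization 41, 44, 43 and 45, and 36 on all. Over all genes recovered in every library, 133 of 669 were called higher on cellulose than on maltose, and 115 of 668 after quantile normalization. Between solid substrates these 47 gave 5 calls for wheat straw minus cellulose, 13 for pine minus cellulose, 11 for aspen minus wheat straw, 6 for pine minus wheat straw, 10 for aspen minus pine and 24 in at least 1 of the 6. After quantile normalization the counts were 5, 15, 9, 6 and 10, with 10 for aspen minus cellulose and 21 in at least 1. Leaving out each library gave 46 to 69 genes called on cellulose against maltose and 46 to 69 on all 4 substrates, 5 to 11 for wheat straw minus cellulose, 13 to 23 for pine minus cellulose and 6 to 12 for pine minus wheat straw. Fewer genes could be tested there too, 51 without a cellulose library and 55 without a wheat straw library. The low counts were 5 without cellulose library C and 6 without wheat straw library A for wheat straw minus cellulose, 14 and 13 without cellulose libraries B and C for pine minus cellulose, and 6 without any 1 cellulose library for pine minus wheat straw. Values above level 13 on cellulose, wheat straw, aspen and maltose have no recovered spread, and a gene with several solutions has none either. A fit whose spread came only from values up to level 11, chosen after the data were seen, called 70 on all 4 substrates. For the other counts of members called here the share over all genes is not given, and nothing about the members is read from them.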
